A study of Mus musculus with 9 samples.

Results

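The Hedgehog genes described here are the ligand Shh, the receptors Ptch1 and Boc, the signal transducer Smo, the repressor Sufu, the antagonist Hhip and the transcription factors Gli1, Gli2 and Gli3. They were taken by gene symbol from the expression table, where all 9 were found among 38195 symbols. The tissue was hypothalamus of outbred CD-1 mouse embryos at stage E12.5, and the labels name no allele or treatment. Vibratome slices were microdissected into 3 groups of 3 numbered libraries, from the ventricular zone next to the ventricle outwards to the medial and then the lateral mantle zone. The labels do not tell separate embryos from repeat preparations of the same tissue, so p-values here reflect library-to-library spread, which may be partly technical. Each value is an FPKM, the number of sequenced fragments per kilobase of a gene's transcript after scaling by library size.

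Hedgehog ligand binds Patched receptors, and Boc is a co-receptor that helps the ligand bind. Unbound Patched keeps Smoothened, the product of Smo, inactive. Once Smoothened is released it acts in the primary cilium to free the Gli proteins from Sufu, so that Gli2 works mainly as an activator, while in unstimulated cells Gli3 is processed mainly into a repressor. Gli1, Ptch1 and Hhip are transcribed in response to the pathway, and for that reason they are widely used as its readout. Ptch1 and Hhip bind the ligand and so form negative feedback. In the early hypothalamus Shh is made by ventral and basal progenitors and takes part in patterning and growth of the region.

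Ventricular zone replicate 3 and medial mantle zone replicate 3 were far shallower than the rest. The depth implied by the smallest steps of the FPKM values was 261303 and 539556 fragments in these, against 4420160 to 8817320 in the other 7 libraries. A single fragment on Shh was worth 1.34 FPKM in the shallow ventricular library and 0.651 FPKM in the shallow medial mantle library, against at most 0.0795 FPKM elsewhere. Results on the members are therefore also given without them.

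In the GRCm38 assembly (mm10, GENCODE M21 gene spans) Shh lies at chr5:28456815-28467256 on the minus strand, Ptch1 at chr13:63508328-63573598 on the minus strand and Boc at chr16:44485049-44558897 on the minus strand. Smo lies at chr6:29735503-29761365 on the plus strand, Sufu at chr19:46396896-46488804 on the plus strand and Hhip at chr8:79965851-80058006 on the minus strand. Gli1 lies at chr10:127329882-127341974 on the minus strand, Gli2 at chr1:118834132-119053619 on the minus strand and Gli3 at chr13:15463235-15730026 on the plus strand. All are protein-coding, and each has a single FPKM value per library. The gene models and lengths behind these values are not given in any source used here. Fragment numbers stated for a gene therefore assume its GENCODE M21 exonic length. On the opposite strand 9530036O11Rik shares 15.7% and Gm26894 shares 12.7% of the exonic bases of Shh, and Gm47200 shares 5.31% of those of Gli1. No other overlap reached 2% of a member's exons. Whether strand was used in counting is not given in any source used here, so reads of these antisense genes could not be told apart from those of Shh and Gli1.

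The sequences before the start sites of 3 members are shown because Ptch1 and Hhip are the feedback targets of the Gli proteins, and Gli2 is the member that holds the searched Gli core motif. Each is the 250 bases upstream of the RefSeq start on GRCm38.p6, read 5′ to 3′ on the minus strand, the strand of the gene. They lie at chr13:63565736-63565985, chr8:80058009-80058258 and chr1:119053620-119053869, and none overlaps an annotated exon. The Ptch1 window lies before the start of the RefSeq entry and inside the longer gene span given above. Capitals mark the core motif.
Ptch1: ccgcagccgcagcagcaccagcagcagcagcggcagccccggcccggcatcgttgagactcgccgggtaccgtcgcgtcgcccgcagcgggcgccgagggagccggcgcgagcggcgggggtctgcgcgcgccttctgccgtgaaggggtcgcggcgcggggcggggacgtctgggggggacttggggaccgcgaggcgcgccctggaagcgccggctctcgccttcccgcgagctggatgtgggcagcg
Hhip: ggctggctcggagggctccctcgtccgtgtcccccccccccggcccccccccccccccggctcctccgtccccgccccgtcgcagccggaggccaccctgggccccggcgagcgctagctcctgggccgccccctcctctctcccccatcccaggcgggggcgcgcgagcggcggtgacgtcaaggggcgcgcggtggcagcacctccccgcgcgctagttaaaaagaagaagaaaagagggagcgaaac
Gli2: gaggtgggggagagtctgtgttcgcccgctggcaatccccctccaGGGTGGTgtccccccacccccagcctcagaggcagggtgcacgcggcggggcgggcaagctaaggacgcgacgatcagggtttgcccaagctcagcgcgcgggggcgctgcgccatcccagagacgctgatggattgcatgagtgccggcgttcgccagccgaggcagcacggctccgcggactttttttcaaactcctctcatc

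Of the 9 members, 6 (Ptch1, Smo, Sufu, Gli2, Gli3 and Hhip) were matched in the RefSeq promoter table used here. The 9-letter Gli motif GACCACCCA, searched on both strands, was in none of these 6, and in 0.225% of 32851 mouse promoter windows of that length. Its 7-letter core ACCACCC, which lies within the longer motif, was found in Gli2 only, on the opposite strand with its first base 205 bases upstream of the start, where it reads GGGTGGT. The core occurred in 3.92% of the 32851 windows. The 6 windows held 8 to 41 CG dinucleotides, against a median of 6 over all windows. A match of letters is a description of the window and not a measured binding site.

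All 9 genes had their lowest level in the lateral mantle zone. Between the ventricular and the medial mantle zone no member passed the test. Shh, Smo and Gli3 ran highest in the ventricular zone on average, and Ptch1 and Gli1 were at nearly the same level in both. For Shh this rested on the shallow libraries. Without them its ventricular minus medial mantle difference was 0.03 in log2(FPKM + 1). Boc and Sufu were higher in every ventricular than in every medial mantle library. The plot of levels by library shows all 9 genes.

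**Figure D1:**
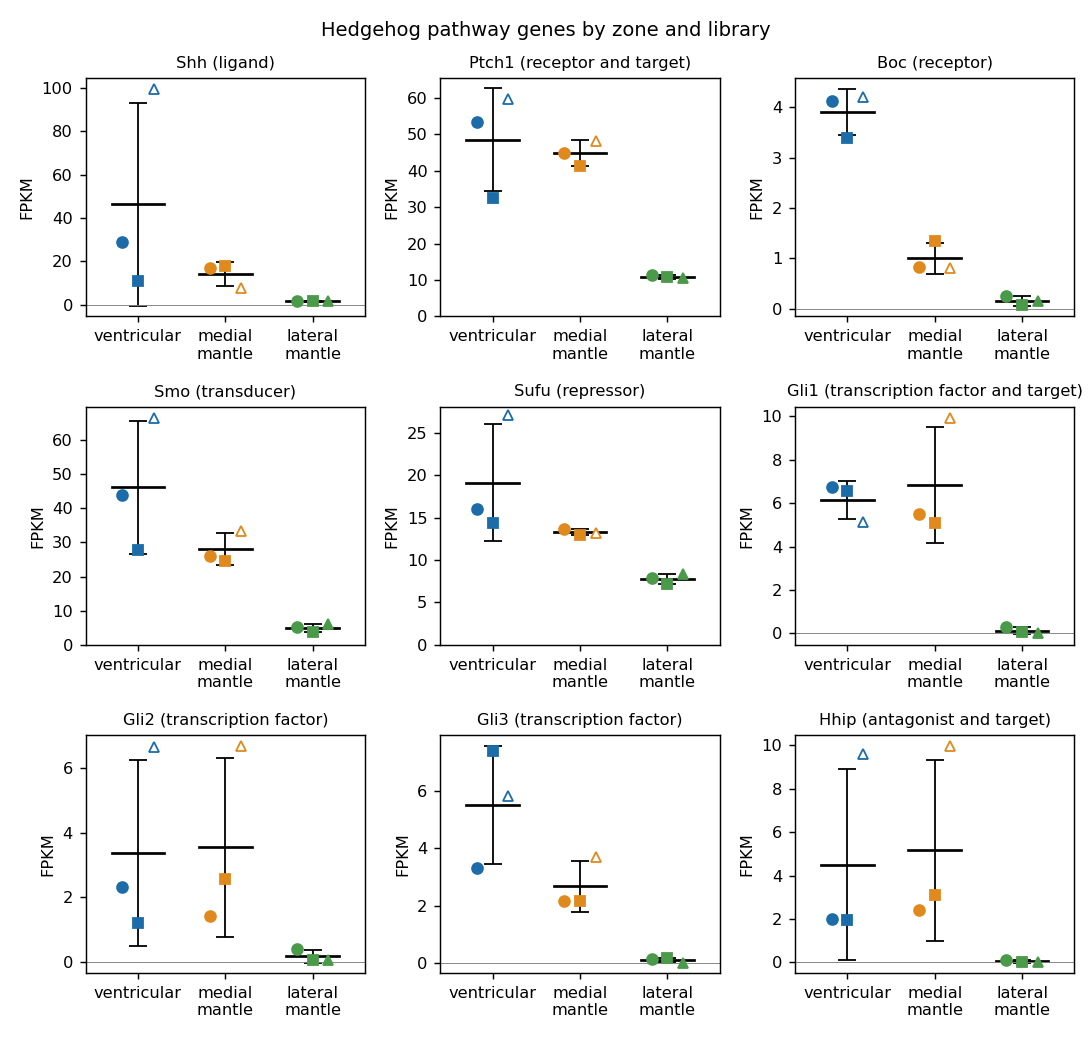
Level of the 9 Hedgehog genes in FPKM (linear axis, own scale for each gene) in the 3 zones; circles, squares and triangles are replicates 1, 2 and 3, open symbols are the 2 shallow libraries, and the long bar with its error bar is the mean ± SD of 3 libraries. The 3 lateral mantle values lie below the 6 other values for every gene, and for Shh the shallow ventricular library stands at 99.3 FPKM above all others.

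Shh encodes the ligand. It measured 29.0, 10.8 and 99.3 FPKM in ventricular zone replicates 1, 2 and 3. The medial mantle replicates held 17.1, 17.7 and 7.57 FPKM, and the lateral mantle replicates held 1.91, 1.53 and 1.66 FPKM. The ventricular and medial mantle values overlapped, with ventricular replicate 2 below medial replicates 1 and 2, while the lateral mantle values lay below all 6 others and varied little. The ventricular spread was as large as the mean (46.4 ± 46.8 FPKM, SD, n = 3), and its highest value was the shallow library, where it rested on about 73.9 fragments.

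On the log2(FPKM + 1) scale Shh was higher in the ventricular than the lateral mantle zone by 3.61 with an SE of 0.65 (limma adjusted p = 0.00669). Without the shallow libraries the difference was 2.80 (limma adjusted p = 0.00191). The medial mantle zone exceeded the lateral by 2.40 ± 0.65, which did not pass the test over all 9 libraries (limma adjusted p = 0.0754). It passed without ventricular replicate 2 (limma adjusted p = 0.0206) and without ventricular replicate 3 (0.00767), whose values enter that comparison only through the shared estimate of the spread. Between the ventricular and medial mantle zones the difference of 1.20 had a 95% interval from -0.26 to 2.66, and it was 0.03 without the shallow libraries.

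Ptch1 encodes the Hedgehog receptor and is itself a target of the pathway. It measured 53.4, 32.6 and 59.7 FPKM in the ventricular replicates, 45.0, 41.2 and 48.3 FPKM in the medial mantle replicates, and 11.5, 10.9 and 10.5 FPKM in the lateral mantle replicates. It was the most abundant member on average in each zone, and its values in the ventricular and medial mantle zones were intermingled. Its mean in the ventricular zone was 4.44-fold and in the medial mantle zone 4.10-fold that of the lateral mantle zone. Ptch1 was higher than in the lateral mantle zone by 2.01 ± 0.22 on the log2(FPKM + 1) scale in the ventricular zone (limma adjusted p = 0.000848) and by 1.94 ± 0.22 in the medial mantle zone (limma adjusted p = 0.00261). The difference between these zones was 0.07, with a 95% interval from -0.43 to 0.57. Its direction turned to -0.10 without ventricular replicate 3, and such a small difference has no settled sign.

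Boc encodes a cell-surface co-receptor of the ligand. It measured 4.13, 3.38 and 4.20 FPKM in the ventricular replicates, 0.821, 1.35 and 0.815 FPKM in the medial mantle replicates, and 0.259, 0.0625 and 0.147 FPKM in the lateral mantle replicates. The 3 zones did not overlap for this gene, in the order ventricular, medial mantle, lateral mantle. Its ventricular level exceeded the lateral by 2.08 ± 0.27 on the log2(FPKM + 1) scale (limma adjusted p = 0.00165). It exceeded the medial mantle zone by 1.30, with a 95% interval from 0.69 to 1.91. That difference had an unadjusted p of 0.000822 and did not pass after adjustment over all genes (limma adjusted p = 0.235). It passed without ventricular replicate 2, with 1.38 (limma adjusted p = 0.0483), or with libraries weighted by their estimated quality, with 1.28 (0.00423). Those fits called 0.672% and 5.56% of all tested genes as higher there, against 0% in the unweighted fit of all 9 libraries. The shallow libraries held only about 4.89 and 1.96 fragments of Boc, and without them the difference was 1.20. The medial mantle zone exceeded the lateral by 0.78 (limma adjusted p = 0.148).

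Smo encodes the membrane protein that carries the signal onwards once Patched is bound. It measured 43.9, 27.9 and 66.4 FPKM in the ventricular replicates, 26.1, 24.6 and 33.2 FPKM in the medial mantle replicates, and 5.12, 3.76 and 6.03 FPKM in the lateral mantle replicates. The lateral mantle values lay apart from the others, while ventricular replicate 2 fell among the medial mantle values. Smo was higher than in the lateral mantle zone by 2.91 ± 0.31 on the log2(FPKM + 1) scale in the ventricular zone (limma adjusted p = 0.000718), where its mean was 9.26-fold higher. It was higher by 2.28 ± 0.31 in the medial mantle zone (limma adjusted p = 0.00436). The ventricular zone stood above the medial mantle zone by 0.63, with a 95% interval from -0.06 to 1.31.

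Sufu encodes the cytoplasmic protein that binds and restrains the Gli factors. It measured 16.0, 14.3 and 27.0 FPKM in the ventricular replicates, 13.7, 13.0 and 13.2 FPKM in the medial mantle replicates, and 7.82, 7.20 and 8.38 FPKM in the lateral mantle replicates. The zones did not overlap, but ventricular replicate 2 lay within 1 FPKM of medial mantle replicate 1. Sufu had the smallest ventricular against lateral difference of the 9 members, 1.14 ± 0.25 on the log2(FPKM + 1) scale (limma adjusted p = 0.0142), a 2.45-fold higher mean. That call was lost without lateral replicate 1 (limma adjusted p = 0.0568) or lateral replicate 2 (0.0601). The medial mantle zone exceeded the lateral by 0.70 (limma adjusted p = 0.150), which passed without ventricular replicate 3 (0.0217) or without both shallow libraries (0.0236).

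Hhip encodes a membrane protein that binds and sequesters the ligand and is induced by the pathway. It measured 1.97, 1.94 and 9.60 FPKM in the ventricular replicates, and 2.41, 3.12 and 9.96 FPKM in the medial mantle replicates. The lateral mantle replicates held 0.125 and 0.0302 FPKM, and replicate 3 was listed at 0. In both other zones the shallow library was the high one, at 4.91-fold the mean of the other ventricular libraries and 3.60-fold that of the other medial mantle libraries, on about 22.8 and 48.8 fragments. Hhip was higher in the ventricular than the lateral mantle zone by 2.11 ± 0.58 on the log2(FPKM + 1) scale (limma adjusted p = 0.0321). Leaving out ventricular replicate 1 or 3 or any lateral library ended that call (limma adjusted p between 0.0536 and 0.0976), while without both shallow libraries the difference was 1.49 (0.00384). The medial mantle zone exceeded the lateral by 2.35 ± 0.58 (limma adjusted p = 0.0536). This passed without ventricular replicate 2 (0.0446), without ventricular replicate 3 (0.00985) or without both shallow libraries (0.00322).

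Gli1 encodes an activating transcription factor whose own gene responds to Hedgehog signalling. It measured 6.73, 6.58 and 5.12 FPKM in the ventricular replicates, and 5.50, 5.08 and 9.94 FPKM in the medial mantle replicates. The lateral mantle replicates held 0.316 and 0.0762 FPKM, and replicate 3 was listed at 0. The lateral mantle values were therefore far below all others, and the ventricular and medial mantle values were intermingled. Gli1 was higher than in the lateral mantle zone by 2.66 ± 0.31 on the log2(FPKM + 1) scale in the ventricular zone (limma adjusted p = 0.00105) and by 2.75 ± 0.31 in the medial mantle zone (limma adjusted p = 0.00255). Without the shallow libraries these were 2.77 and 2.49. The ventricular zone differed from the medial mantle zone by -0.09, with a 95% interval from -0.79 to 0.61, and by 0.28 without the shallow libraries.

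Gli2 encodes the main activator. It measured 2.31, 1.19 and 6.64 FPKM in the ventricular replicates, 1.41, 2.55 and 6.68 FPKM in the medial mantle replicates, and 0.394, 0.0412 and 0.0647 FPKM in the lateral mantle replicates. As for Hhip, the shallow library was the highest of its zone, at 3.80-fold and 3.37-fold the mean of the others. Gli2 was higher in the ventricular than the lateral mantle zone by 1.72 ± 0.54 on the log2(FPKM + 1) scale, just inside the threshold (limma adjusted p = 0.0498). That call was lost without ventricular replicate 1 or 3, medial mantle replicate 1 or 2, or any lateral library (limma adjusted p between 0.0532 and 0.143). It was lost under 13 of the 20 alternatives in all, among them the filter on the mean (0.0558), quantile normalization (0.0885), no intensity trend (0.0513) and a fit of only the 2 zones (0.0573). Without both shallow libraries the difference was 1.22 (0.0221). The medial mantle zone exceeded the lateral by 1.80 (limma adjusted p = 0.0986), and this passed without ventricular replicate 3 (0.0288). The Gli2 window printed above was the only member window with the core motif.

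Gli3 encodes the factor that is processed into the main repressor of the pathway. It measured 3.33, 7.38 and 5.84 FPKM in the ventricular replicates, 2.18, 2.17 and 3.70 FPKM in the medial mantle replicates, and 0.149, 0.183 and 0.0261 FPKM in the lateral mantle replicates. It was the member for which ventricular replicate 2 was the highest library of its zone. The ventricular zone was higher than the lateral by 2.49 ± 0.33 on the log2(FPKM + 1) scale (limma adjusted p = 0.00178) and the medial mantle zone by 1.69 ± 0.33 (limma adjusted p = 0.0219). The second of these was lost without any medial mantle or lateral mantle library (limma adjusted p between 0.0612 and 0.0918). The ventricular zone stood above the medial mantle zone by 0.80, with a 95% interval from 0.05 to 1.54, which did not pass after adjustment (limma adjusted p = 0.407).

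The members were chosen with earlier results of these data known, so the counts here and in the next paragraph describe the list and do not test it. Counted together, 9 of 9 members were higher in the ventricular than the lateral mantle zone, where 10.7% of the 14004 tested genes were higher and 8.93% lower. In the medial against the lateral mantle zone 4 of 9 passed as higher (Ptch1, Smo, Gli1 and Gli3), where 3.58% of genes were higher and 0.543% lower. In the ventricular against the medial mantle zone 0 of 9 passed in limma, where 0% of genes were called, the lowest adjusted p over all genes being 0.0624. At an unadjusted p under 0.05 that comparison held 1661 genes, among them Boc and Gli3. With library weights the limma fit called 2 of 9 members there as higher, Boc and Smo, where it called 5.56% of all genes as higher and 2761 of 14004 in either direction.

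Every ventricular library was above every lateral mantle library for 9 of 9 members, against 25.2% of all tested genes, and every medial mantle library likewise for 9 of 9, against 25.7%. Every ventricular library was above every medial mantle library for Boc and Sufu, 2 of 9, against 5.36%. The members' median difference was 2.11 for the ventricular and 1.94 for the medial mantle zone over the lateral, and 0.44 between the former, on the log2(FPKM + 1) scale. Over all tested genes these medians were 0.05, 0.10 and -0.05. Boc, Gli1, Gli2, Gli3 and Hhip were below 1 FPKM in every lateral library, so these 5 entered the test only through the zones where they were high. Of the 4 others, Shh, Ptch1, Smo and Sufu passed against the lateral mantle zone in the ventricular zone, and Ptch1 and Smo in the medial mantle zone. These comparisons share libraries and are not independent of each other. In bulk RNA a smaller number of expressing cells and less RNA per cell cannot be told apart.

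**Figure D2:**
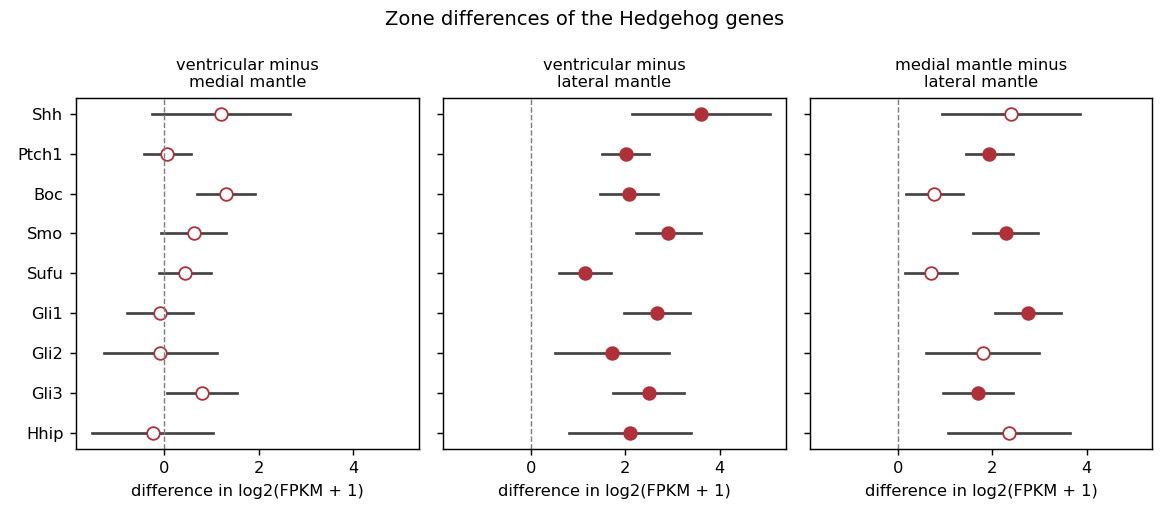
Difference between zones in log2(FPKM + 1) for the 9 Hedgehog genes, with 95% intervals from limma; filled points passed at an adjusted p under 0.05 over all tested genes and open points did not. All 9 are filled in the ventricular against lateral panel, 4 in the medial against lateral panel and 0 in the ventricular against medial panel.

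The count for medial against lateral mantle depended on the ventricular libraries, which enter it through the shared spread. It was 8 without ventricular replicate 3, 8 without both shallow libraries, 8 when only the 2 zones were fitted, and 9 with library weights. The share of all tested genes called higher also grew in these fits, from 3.58% to 9.60%, 9.39%, 9.75% and 17.6% in the same order. In each of the first 3 the member that did not pass, or was not tested, was Boc. Without both shallow libraries all 9 passed in the ventricular against the lateral mantle zone, with differences of 1.84 for Ptch1, 2.04 for Boc, 2.61 for Smo, 0.88 for Sufu and 2.43 for Gli3, and the medial mantle zone exceeded the lateral by 1.88 for Ptch1, 2.16 for Smo and 1.51 for Gli3. In the ventricular against the lateral mantle zone Shh, Ptch1, Boc, Smo, Gli1 and Gli3 passed under all 20 alternatives run, and in the medial against the lateral mantle zone Ptch1, Smo and Gli1 did.

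FPKM is scaled by length, so levels of different genes can be set side by side within a zone. In the lateral mantle zone the order of mean FPKM was Ptch1, Sufu, Smo and Shh, at 10.9, 7.80, 4.97 and 1.70 FPKM, and the ranges of these 4 did not overlap. The other 5 were at 0.167 FPKM or less on average with overlapping ranges. In the medial mantle zone Ptch1 (44.9 FPKM) lay above Smo (28.0 FPKM) without overlap, Smo above Shh (14.1 FPKM) and Sufu (13.3 FPKM), which overlapped, and all of these except Shh above Gli1 (6.84 FPKM) without overlap. In the ventricular zone Ptch1, Shh and Smo had nearly equal means (48.6, 46.4 and 46.1 FPKM) and overlapping ranges. The Shh mean rested on the shallow replicate 3 (99.3 FPKM). In replicates 1 and 2 Shh (29.0 and 10.8 FPKM) was below Ptch1 (53.4 and 32.6 FPKM) and Smo (43.9 and 27.9 FPKM). Sufu followed at 19.1 FPKM, and Gli1, Gli3, Hhip, Boc and Gli2 lay between 3.38 and 6.14 FPKM on average. The mean of Shh was thus below that of Sufu in the lateral mantle zone and above it in the ventricular zone. By library the ventricular order was split. Shh was above Sufu in replicate 1 (29.0 against 16.0 FPKM) and the shallow replicate 3 (99.3 against 27.0 FPKM). It was below Sufu in replicate 2 (10.8 against 14.3 FPKM).

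The ligand was set against its receptor, a target and a repressor by subtracting log2(FPKM + 1) values within each library, which largely removes any factor common to both genes. Shh minus Sufu was 0.82, -0.38 and 1.84 in the ventricular replicates, 0.30, 0.42 and -0.73 in the medial mantle replicates, and -1.60, -1.70 and -1.82 in the lateral mantle replicates. Relative to Sufu, then, the ligand was lower in all 3 lateral libraries than in any other. The ventricular mean of Shh minus Sufu exceeded the lateral mean by 2.46. An exact permutation test over the 1680 assignments of libraries to zones gave p = 0.0143, or 0.0571 adjusted over the 4 gene pairs tested, which did not pass. Without ventricular replicate 2 that excess was 3.04 and the adjusted p of the exact permutation test was 0.0143.

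Shh minus Ptch1 was -0.86, -1.52 and 0.72 in the ventricular replicates, -1.35, -1.17 and -2.53 in the medial mantle replicates, and -2.10, -2.23 and -2.11 in the lateral mantle replicates. Only in the shallow ventricular library did the ligand exceed its receptor. The ventricular mean exceeded the lateral by 1.60 (exact permutation p = 0.0964, adjusted 0.129). It was 2.08 without ventricular replicate 2 (exact permutation test, adjusted p = 0.0286) and 0.96 without ventricular replicate 3 (adjusted p = 0.333).

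Shh minus Gli1, the ligand against its target, was 1.96, 0.63 and 4.04 in the ventricular replicates, 1.48, 1.62 and -0.35 in the medial mantle replicates, and 1.15, 1.23 and 1.41 in the lateral mantle replicates. The zones overlapped fully, and the ventricular excess over the lateral mean of 0.94 (exact permutation p = 0.539, adjusted 0.539) fell to 0.03 without ventricular replicate 3. With a pseudocount of 0.1 FPKM its direction reversed to -0.86. Gli1 was close to 0 FPKM in the lateral mantle zone, where the pseudocount weighs most.

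Gli1 minus Gli3, the activator target against the repressor, was 0.84, -0.15 and -0.16 in the ventricular replicates, 1.03, 0.94 and 1.22 in the medial mantle replicates, and 0.19, -0.14 and -0.04 in the lateral mantle replicates. All 3 medial mantle libraries were above the 6 others. In the lateral mantle libraries both genes were far below the pseudocount of 1 FPKM, which holds their difference near 0 there whatever their ratio, so the lateral values and the test that includes them say little about the balance of these genes. The medial mantle mean was 1.06 ± 0.14 (SD, n = 3), against 0.18 ± 0.57 for the ventricular replicates and 0.01 ± 0.17 for the lateral mantle replicates. The exact permutation test gave p = 0.0536, or 0.107 adjusted over the 4 pairs, and without ventricular replicate 1 an adjusted p of 0.0286. The lowest p that this test can give with 9 libraries is 0.00357.

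**Figure D3:**
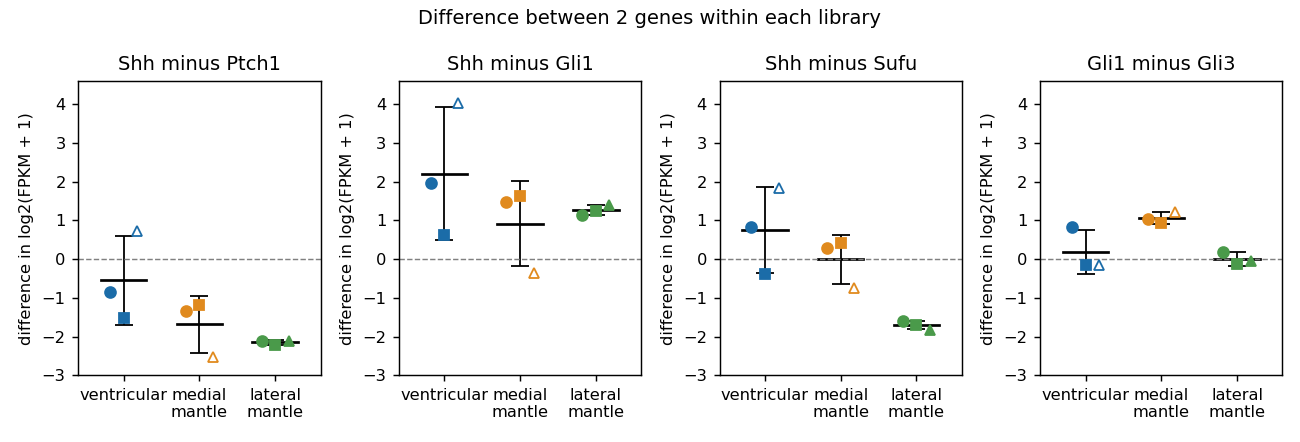
Difference in log2(FPKM + 1) between 2 Hedgehog genes within each library, by zone; circles, squares and triangles are replicates 1, 2 and 3, open symbols are the 2 shallow libraries, and bars are the mean ± SD of 3 libraries. Shh minus Sufu is lowest in the 3 lateral mantle libraries (-1.60 to -1.82), and Gli1 minus Gli3 is highest in the 3 medial mantle libraries (0.94 to 1.22).

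Within the ventricular zone the libraries were not interchangeable for these genes. Replicate 3 was highest and replicate 2 lowest for 7 of the 9 members, the exceptions being Gli1, highest in replicate 1, and Gli3, highest in replicate 2. Ventricular replicate 2 also held the most neuronal RNA of its zone, with 12 neuronal markers summing to 1707 FPKM, against 800.4 and 634.7 FPKM in replicates 1 and 3. Its 12 radial glia and progenitor markers summed to 1025 FPKM, against 1863 and 2299 FPKM. The part of these cell types in the spread of the members was not tested.

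Across zones the radial glia and progenitor sum was lowest in the lateral mantle zone, like the Hedgehog genes. The neuronal sum was highest there. The radial glia and progenitor markers summed to 1025 to 2299 FPKM in the ventricular zone, 989.5 to 1157 FPKM in the medial mantle zone and 89.5 to 127.0 FPKM in the lateral mantle zone. Against the lateral mantle zone 11 of these 12 markers were higher in the ventricular and 11 in the medial mantle zone in limma. Median differences were 4.20 and 3.29 on the log2(FPKM + 1) scale. Over all tested genes 10.7% and 3.58% were higher in these comparisons. Pax6 was the exception and did not pass. Sox9, Slc1a3 and Mki67 were under 1 FPKM in every lateral library and entered the test only through the other zones. Of 12 neuronal markers 10 were lower in the ventricular than the lateral mantle zone, where 8.93% of all tested genes were lower. The neuronal sums were 634.7 to 1707 FPKM, 1658 to 1948 FPKM and 2326 to 2759 FPKM in the same order of zones. Of 7 tested erythroid genes 5 were higher in the ventricular and 5 in the medial mantle zone, against the lateral one (sums of 2403 to 2826, 1701 to 3168 and 416.1 to 774.2 FPKM). Their part in the Hedgehog differences between zones was not tested.

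Other tissue markers were low or uneven. Of the endothelial and pericyte markers 0 of 9 passed in limma in any comparison, and their sums were 14.0 to 49.5, 23.9 to 62.4 and 14.7 to 44.4 FPKM. The microglia and macrophage markers had 2 of 8 lower in the ventricular than the lateral mantle zone (12.2 to 26.5 against 42.4 to 53.7 FPKM). There 8.93% of all tested genes were lower. Of the genes listed as meningeal, 1 of 4 tested, Foxd1, was higher than in the lateral mantle zone in each of the other zones. Over all tested genes 10.7% and 3.58% were higher in these comparisons. Foxd1 averaged 19.3, 23.6 and 1.25 FPKM in the ventricular, medial and lateral mantle zones. Col1a1, Col1a2 and Vtn did not pass, and Dcn and Lum did not exceed 0.164 and 0.0555 FPKM in any library. Foxd1 went apart from the rest of its list, so it is not read here as a sign of meningeal RNA. Telencephalic and thalamic markers had 0 of 4 that passed. Nkx2-1, which marks the hypothalamus, was present in every library.

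A further 43 genes of the pathway were listed by role, and 38 of them were tested. In the ventricular against the lateral mantle zone 8 of 38 were higher and 2 lower (10.7% and 8.93% of all tested genes), with a median difference of 0.30 on the log2(FPKM + 1) scale. In the medial against the lateral mantle zone 3 of 38 were higher and 0 lower (3.58% and 0.543% of all tested genes), with a median of 0.27, and in the ventricular against the medial mantle zone 0 passed in limma. The counts by role below are small and are read against the same shares of all genes, so they describe the genes named and show nothing particular to a role. 

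Among genes for ligands and their release, 0 of 6 tested were higher in the ventricular than the lateral mantle zone and 1 was lower, against 10.7% and 8.93% of all genes. The lower gene was Disp2, a relative of the ligand exporter Disp1, at 11.7, 28.1 and 10.7 FPKM in the ventricular replicates and 43.8, 44.3 and 41.5 FPKM in the lateral mantle replicates. It fell by 1.44 ± 0.31 on the log2(FPKM + 1) scale (limma adjusted p = 0.0135), a call lost without ventricular replicate 1 or lateral replicate 1 or 2 (highest limma adjusted p 0.0551). The other Hedgehog ligands were nearly silent: Ihh did not exceed 0.763 FPKM and Dhh did not exceed 0.246 FPKM in any library. The most abundant genes of this list that did not pass were Scube3 and Scube1, whose products help release the ligand, with 16.2 to 32.5 and 4.79 to 15.2 FPKM over the 9 libraries.

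Among other receptors and co-receptors, 2 of 3 were higher in the ventricular than the lateral mantle zone, against 10.7% of all tested genes. These were the co-receptors Gas1 and Lrp2 (differences of 1.28 and 1.82) at levels of at most 2.57 and 5.20 FPKM, and are named here after their values were seen. Both were under 1 FPKM in every lateral library and so entered the test only through the other zones. The call of Gas1 was lost without ventricular replicate 1 or any lateral library (limma adjusted p up to 0.0999). Cdon, the close relative of Boc, did not pass, at 11.1, 3.82 and 14.6 FPKM in the ventricular, 1.87, 2.14 and 0 in the medial mantle and 3.70, 4.49 and 3.12 FPKM in the lateral mantle replicates.

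Among genes of signal transduction and Gli regulation, 3 of 18 were higher in the ventricular than the lateral mantle zone and 1 was lower, against the same shares of all genes. Kif7, a ciliary kinesin that controls Gli processing, measured 7.48, 4.14 and 7.40 FPKM in the ventricular, 3.12, 3.68 and 1.60 FPKM in the medial mantle and 0.285, 0.490 and 0.577 FPKM in the lateral mantle replicates. It was higher by 2.31 ± 0.34 on the log2(FPKM + 1) scale in the ventricular than the lateral mantle zone (limma adjusted p = 0.00272). Evc2, which acts beside Smoothened at the cilium, was higher by 1.78 at 3.41 to 4.56 FPKM in the ventricular zone, and is named after its values were seen. Kif7 and Evc2 too were under 1 FPKM in every lateral library and entered the test only through the other zones. Stk36, a Fused-family kinase, was higher by 0.72 (limma adjusted p = 0.0376) and Prkar1a, a regulatory subunit of the kinase that marks Gli proteins for processing, was lower at -0.58 (0.0384). Both calls were lost without ventricular replicate 1 or 3, medial mantle replicate 1 or 2, or any lateral library (highest limma adjusted p 0.145 and 0.132). The kinase genes Csnk1a1 and Gsk3b, the most abundant that did not pass, ranged from 112 to 148 and from 51.4 to 68.4 FPKM.

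Among targets and ventral identity genes, 3 of 11 tested were higher in the ventricular than the lateral mantle zone, against 10.7% of all tested genes. In the medial mantle zone 3 were higher than in the lateral, against 3.58% of all tested genes. The genes that passed were Nkx2-2, Olig2 and Ccnd1 in both. Nkx2-2, a ventral homeodomain factor, measured 26.9, 10.4 and 23.9 FPKM in the ventricular, 54.0, 49.1 and 54.0 FPKM in the medial mantle and 2.93, 5.95 and 2.91 FPKM in the lateral mantle replicates. Its highest zone was the medial mantle zone, with every library above every ventricular library. The ventricular minus medial mantle difference of -1.42 did not pass (limma adjusted p = 0.330). It was higher than in the lateral mantle zone by 3.49 ± 0.36 on the log2(FPKM + 1) scale in the medial mantle zone (limma adjusted p = 0.00181) and by 2.07 ± 0.36 in the ventricular zone (0.00547).

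Olig2, a progenitor factor of the ventral neural tube, measured 36.2, 48.1 and 44.2 FPKM in the ventricular, 20.1, 7.02 and 16.8 FPKM in the medial mantle and 1.83, 0.470 and 1.02 FPKM in the lateral mantle replicates. The 3 zones did not overlap, but the ventricular minus medial mantle difference of 1.59 did not pass (limma adjusted p = 0.324). Olig2 was higher than in the lateral mantle zone by 4.42 ± 0.39 on the log2(FPKM + 1) scale in the ventricular zone (limma adjusted p = 0.000405). In the medial mantle zone it was higher by 2.83 ± 0.39 (limma adjusted p = 0.00484). Ccnd1, a cyclin that drives entry into the cell cycle, measured 74.9, 71.0 and 185 FPKM in the ventricular, 41.7, 52.6 and 90.0 FPKM in the medial mantle and 10.7, 10.1 and 15.1 FPKM in the lateral mantle replicates. It was higher by 2.97 ± 0.39 (0.00168) and 2.21 ± 0.39 (0.0137), the second of these lost without medial mantle replicate 2 or 3 or lateral replicate 1 or 2 (limma adjusted p up to 0.0726).

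The most abundant targets that did not pass were Nkx2-1 and Foxa1. Nkx2-1, a factor that specifies the ventral hypothalamus, measured 132, 191 and 41.5 FPKM in the ventricular, 146, 119 and 40.2 FPKM in the medial mantle and 11.7, 35.9 and 30.3 FPKM in the lateral mantle replicates, with the shallow library lowest in the first 2 of these zones (ventricular against lateral limma adjusted p = 0.0515). Foxa1, which is expressed in ventral midline cells, measured 26.4, 22.2 and 54.5 FPKM in the ventricular, 1.74, 8.18 and 0 in the medial mantle and 12.47, 62.6 and 5.97 FPKM in the lateral mantle replicates.

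**Figure D4:**
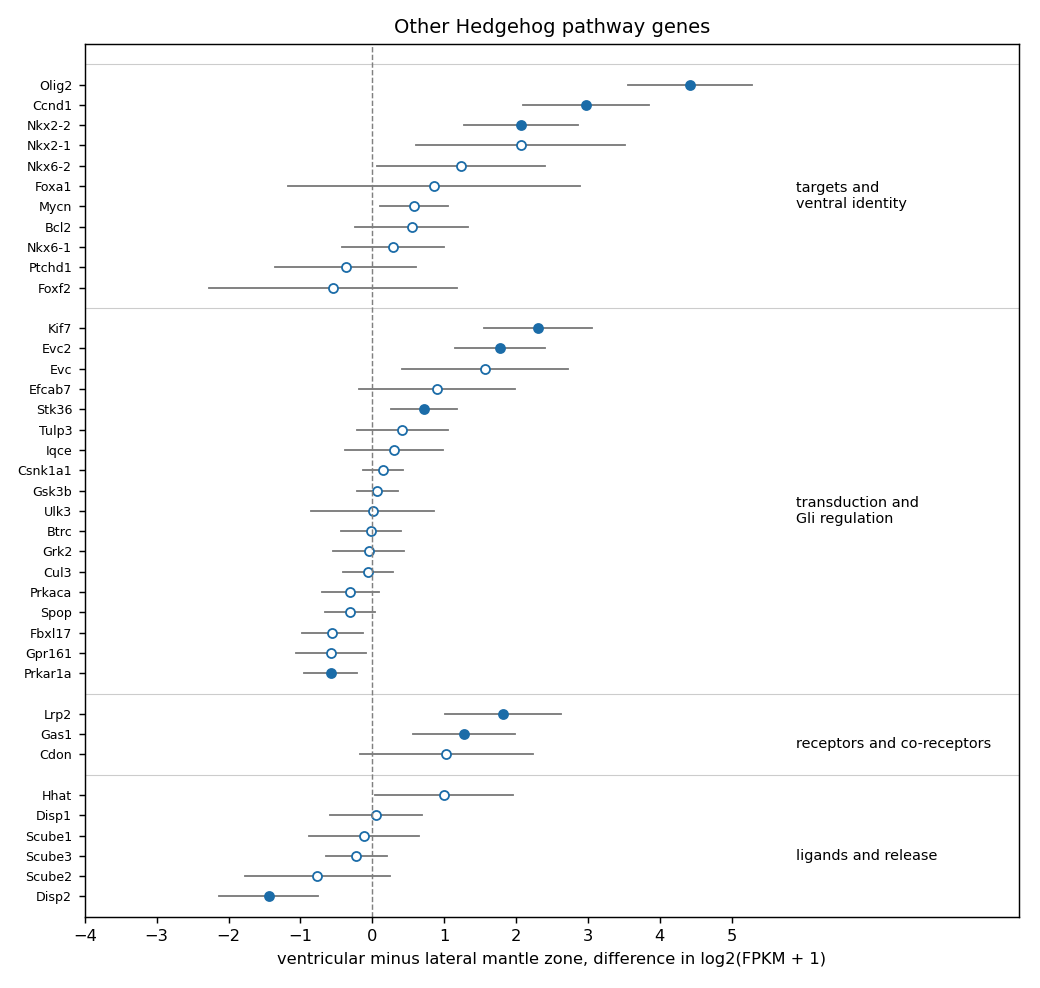
Ventricular minus lateral mantle difference in log2(FPKM + 1) for the 38 tested genes of the wider Hedgehog pathway, grouped by role, with 95% intervals from limma; filled points passed at an adjusted p under 0.05 over all tested genes. The 8 filled points to the right of 0 run from Stk36 (0.72) to Olig2 (4.42), and the 2 to the left are Disp2 (-1.44) and Prkar1a (-0.58).

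Genes whose profile over the 9 libraries was most like that of a member were ranked by Pearson r of log2(FPKM + 1), given as a description with no test because the libraries share zones and depth. For Shh these were Pgpep1, Gprc5b, Dll1, Serinc2 and E2f5, with r from 0.990 down to 0.981. Dll1, a Notch ligand of cells that begin to differentiate, measured 91.8, 46.6 and 141 FPKM in the ventricular replicates, with replicate 3 highest and replicate 2 lowest as for Shh. For Smo they were Tead2, Ildr2, Hnrnpm, Cdc20 and Nusap1, with r from 0.998 to 0.995. Tead2, a transcription factor of neural progenitors, measured 148, 81.7 and 389 FPKM in the ventricular, 74.8, 81.8 and 126 FPKM in the medial mantle and 4.36, 2.80 and 7.18 FPKM in the lateral mantle replicates, the same order of libraries as Smo within the ventricular and lateral mantle zones.

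For Gli1 the closest profiles were Acaa2, Slc39a1, Tcf7l1, Cdca3 and Numb, with r from 0.985 to 0.980. Numb, an inhibitor of Notch, measured 9.12, 7.90 and 7.67 FPKM in the ventricular, 7.88, 9.35 and 11.7 FPKM in the medial mantle and 3.01, 3.28 and 3.30 FPKM in the lateral mantle replicates. As for Gli1, its highest library was medial mantle replicate 3. For Sufu they were Supt16, Mat2b, Smad3, Fubp3 and Cbx1, with r from 0.991 to 0.990. Smad3, a transducer of TGF-beta signals, measured 15.9, 9.96 and 50.1 FPKM in the ventricular, 8.14, 7.49 and 6.72 FPKM in the medial mantle and 1.32, 1.57 and 2.87 FPKM in the lateral mantle replicates, a wider range than that of Sufu. Over the 7 deeper libraries alone these 20 values of r stayed between 0.967 and 0.997.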

How the data were processed

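The authors deposited 1 table of FPKM values per gene for 9 libraries. Per the labels' protocols RNA was isolated with an RNeasy Micro kit, made into NEBNext Ultra libraries and sequenced as 100 bp pairs on an Illumina HiSeq instrument. Bowtie2 2.1.0 and the mm10 build are named in the submitters' processing notes; which program made the FPKM values is not given in any source used here. After removal of 42 identical rows and 133 rows with a repeated symbol, 38195 symbols were kept. FPKM is not a count, so log2(FPKM + 1), which understates the change of low genes, was tested with limma 3.58.1 (R 4.3.3). The fit used 1 mean per zone over all 9 libraries, an intensity trend, and the 14004 genes that reached 1 FPKM in 3 or more libraries. P-values are two-sided, adjusted by Benjamini-Hochberg over all tested genes within a comparison (threshold 0.05), and the fit was tested on simulated data. Differences between 2 genes were tested by exact permutation of the zones. Depth was implied from the smallest steps of low FPKM values in genes of known length, and gives relative fragment numbers only. Grk2 was matched by its older symbol Adrbk1, Foxf1 was not analysed here, and results for some listed genes are not reported here. The members and gene lists were chosen with earlier results of these data known. Named were all members, listed pathway genes that passed and averaged 5 FPKM or more in their highest zone, up to 2 per list that did not pass, and the 5 genes most like each of Shh, Smo, Gli1 and Sufu. Alternatives covered the pseudocount, filter, scaling, trend, library weights, zones fitted, a replicate block and leaving out libraries.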

Additional observations from a re-analysis of the deposited data

How the results depend on the processing

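The ventricular against medial mantle count of 0 members became 2 with library weights and 0 to 1 when each library was left out in turn (1, Boc, without ventricular replicate 2). The share of all tested genes called higher there was 5.56% with library weights and 0.672% without ventricular replicate 2. The medial against lateral mantle count of 4 became 9 with library weights, 8 when only the 2 zones were fitted, 8 without both shallow libraries, and 3 to 8 with each library left out in turn. The share of all tested genes called higher there also moved, from 1.37% to 9.6% with each library left out. The ventricular against lateral mantle count of 9 was 6 to 9 with each library left out, and 7 with no filter or with a pseudocount of 5 FPKM, where Gli2 and Hhip were lost. For that comparison the share of all tested genes called higher was 4.81% to 14.1% with each library left out. It was 5.1% with no filter and 10.2% with the pseudocount of 5 FPKM. The member counts thus moved along with calls over all genes. Library weights also raised the calls over all genes between the ventricular and medial mantle zones from 0 to 2761. With a library left out in turn the ventricular excess over the lateral mantle zone of Shh minus Ptch1 ranged from 0.959 to 2.08, that of Shh minus Sufu from 1.92 to 3.04, that of Shh minus Gli1 from 0.03 to 1.73, and that of Gli1 minus Gli3 from -0.16 to 0.339, reversed without ventricular replicate 1. With a pseudocount of 0.1 FPKM that of Shh minus Gli1 reversed to -0.86. 4 members whose ventricular against medial mantle difference passed no test changed sign. Ptch1 (0.07) became -0.044 without both shallow libraries and ranged from -0.098 to 0.33 with each library left out in turn. Gli1 (-0.09) became 0.25 with library weights and 0.28 without both shallow libraries, and ranged from -0.25 to 0.18 with a library left out. Gli2 (-0.08) became 0.069 with library weights and ranged from -0.59 to 0.38, and Hhip (-0.25) ranged from -0.86 to 0.27, with a library left out. The cause was not tested.

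The labels do not say whether a replicate number marks shared embryos. Deviations of same-numbered libraries correlated at -0.10 to 0.25 over 9 pairs (median 0.09, against -0.03 over 18 pairs with different numbers), not all above 0.1, and ventricular replicate 1 correlated best with medial mantle replicate 2, so the libraries were not treated as paired. With a replicate block 0, 9 and 5 members passed in the ventricular against medial, ventricular against lateral and medial against lateral comparisons (0, 2901 and 703 of all genes, against 0, 2750 and 577 without it), Hhip being the member added. No gene pair passed with the block (lowest adjusted p 0.222 in the exact permutation test within numbers). Permuting only within numbers leaves far fewer assignments, so the lowest p this test can give is higher than without the block. A pass after adjustment was therefore hard to reach, and no conclusion is drawn from it. In the shallow libraries Boc, Gli1, Gli2, Gli3 and Hhip rested on about 1.96 to 48.8 fragments each.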
